A study of Mus musculus with 64 samples.

Results

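Regulatory T (Treg) cells with a functional Foxp3 gene were compared with activated cells that had switched on the Foxp3 locus but could not make the protein. Of 64 mouse libraries, 12 entered this comparison: 2 of active GFP Treg cells and 10 of active minusFoxp3 cells, chosen by their sample titles and by no measured value. The GFP Treg cells carried a Foxp3GFP allele, in which Foxp3 is tagged with green fluorescent protein (GFP), and were not treated. The minusFoxp3 cells, also called Treg wannabe cells, carried the Foxp3-LSL allele, in which a loxP-flanked Thy1.1 reporter with a STOP cassette sits ahead of a Foxp3-GFP sequence. Their Cd4 locus was wild type, so that no Cre recombinase could remove the cassette. The minusFoxp3 cells came as 2 libraries at each of 5 times, on day 0 without treatment and 3, 7, 14 and 28 days after a single dose of 4-hydroxytamoxifen, the drug that activates CreERT2 in the cells of the same study that do carry it. Per the paper and its reporting summary, wannabe cells were gated as CD4+ CD3+ cells with the T cell receptor β chain (TCRβ+), then as Thy1.1+ GFP-. They came from heterozygous females, whose other X chromosome supplies functional Treg cells, so that wannabe and functional Treg cells lived side by side. The zygosity of the mice that gave the GFP Treg cells was not given in the sources used here. Both groups were the activated fraction, sorted by surface markers including high CD44, of spleen and lymph nodes. Because GFP Treg cells differ from minusFoxp3 cells in allele, reporter, sort gate, mouse of origin and, against 8 of the 10 libraries, drug treatment, these cannot be told apart from Foxp3 itself. Replicates were named as separate samples only, so that p-values measure the spread between these libraries. In sorted bulk samples, fewer cells of a type and less RNA per cell cannot be told apart.

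Foxp3 is the X-linked transcription factor that defines Treg cells, which restrain other lymphocytes through CTLA-4, consumption of IL-2, TGF-β activation and inhibitory cytokines. Cells that transcribe Foxp3 without making functional protein keep part of the Treg surface phenotype but lose suppressive function. T helper 17 (Th17) cells, which depend on IL-23 signaling, secrete IL-17A and IL-17F and defend barrier tissues.

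The 12 libraries held between 42746339 and 52672579 counted read pairs and between 33387 and 35532 detected genes. Foxp3 (chrX:7439883-7461484, GRCm39, plus strand) was measured at 734 and 817 CPM (counts scaled to an equal library total) in the GFP Treg libraries and at 44.3 to 65.3 CPM in the minusFoxp3 libraries. The minusFoxp3 cells thus still had reads on the Foxp3 gene, and the groups did not overlap. The log2 fold change of Foxp3 was 3.86 ± 0.13 (SE; adjusted p = 8.71e-12). Thy1, whose coding sequence the Thy1.1 reporter shares, went the other way, with 36.4 and 62.7 CPM in GFP Treg cells and 386 to 585 CPM in minusFoxp3 cells. Both genes are tied to the alleles and to the sort, so their differences check the labels and are not results. Markers of CD4 T cells were present in all 12 libraries: Trac was at 2335 and 2255 CPM in GFP Treg cells and at 1873 to 2325 CPM in minusFoxp3 cells, Cd3e at 986 and 1024 against 787 to 924 CPM, and Cd4 at 735 and 618 against 628 to 1031 CPM. Of the markers of the active sort, Cd44 was at 187 and 223 CPM in active and 145 and 140 CPM in resting ones.

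Before the comparison, 5 of the 10 minusFoxp3 libraries stood apart by genes of another cell type. Siglech, a receptor of plasmacytoid dendritic cells, was at 78.5 CPM in day 0 replicate 2, 22.8 in day 3 replicate 1, 125 in day 7 replicate 2, 51.3 in day 14 replicate 2 and 68.9 CPM in day 28 replicate 2. In the other 5 it was at 2.37 to 5.05 CPM, and in GFP Treg cells at 0.21 and 0.31 CPM. Pld4 and the antigen-presentation gene H2-Aa followed the same libraries, with up to 97.6 and 109 CPM. The whole list of 22 myeloid markers summed to 52.3 to 901 CPM in minusFoxp3 and 440 to 462 CPM in GFP Treg libraries, most of the latter being Cd74 at 417 CPM in each, while Ly6g, Adgre1 and S100a8 were below 1 CPM in all 12. The part of such cells in the results was not tested. The counts over all genes, and those of the gene lists in the active comparison, were also taken without these 5 libraries, chosen after the data were seen, which leaves 1 minusFoxp3 library at each day, and a changed count is given where it moved by over 1.5 times. The gene list counts of the state difference were not repeated without them.

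**Figure D1:**
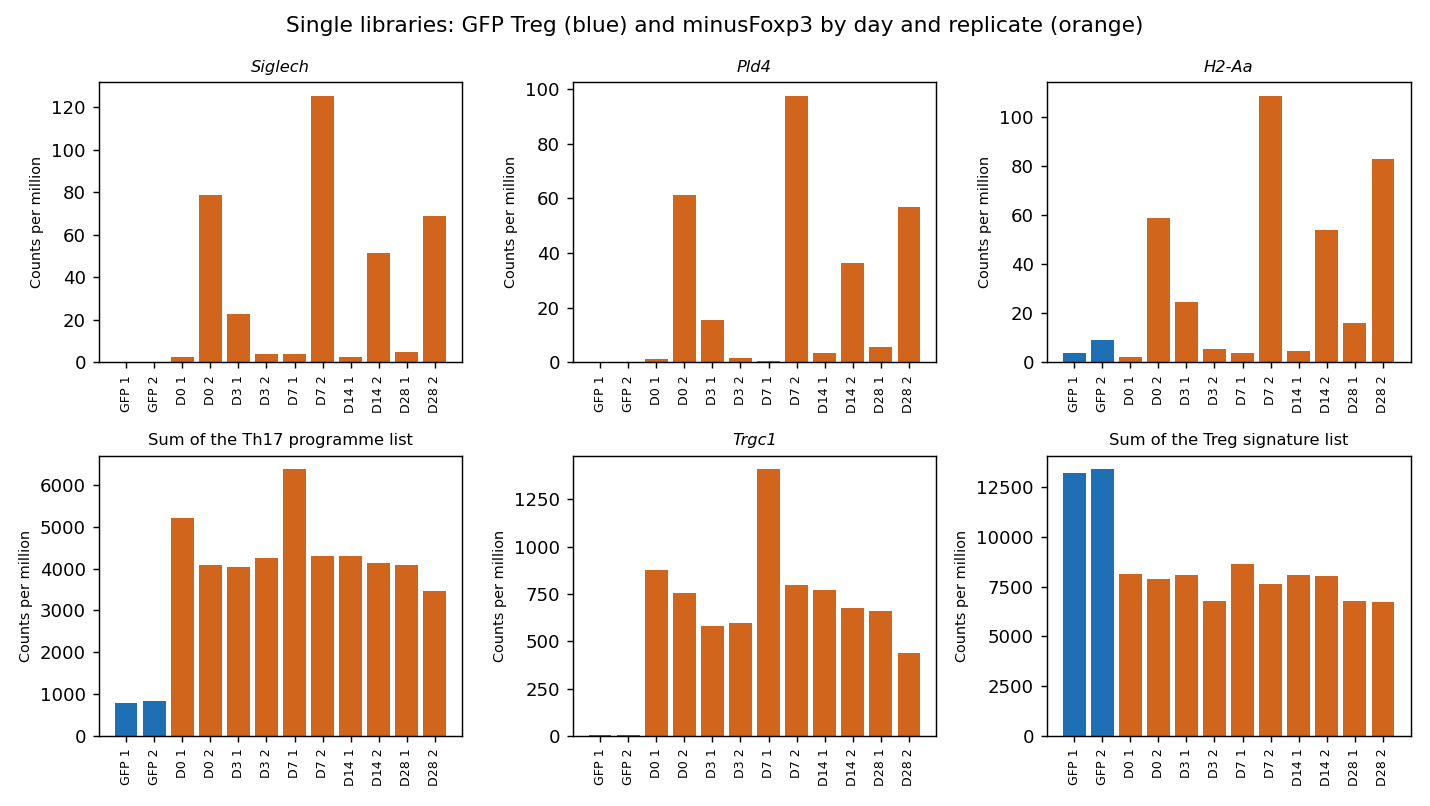
Levels in single libraries, in CPM, of Siglech, Pld4 and H2-Aa (upper row) and of the summed Th17 programme list, Trgc1 and the summed Treg signature list (lower row); D0 to D28 are the days of minusFoxp3 cells, followed by the replicate. Siglech, Pld4 and H2-Aa are high in the same 5 orange bars, whereas the 2 blue GFP Treg bars lie below every orange bar for the Th17 sum and Trgc1 and above them for the Treg signature sum.

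Across the transcriptome, 3355 of 20776 tested genes (16.1%) differed between active GFP Treg and minusFoxp3 cells at an adjusted p under 0.05. Of these, 1966 were higher in GFP Treg cells (9.46% of the genes tested) and 1389 were lower (6.69%). At least a 2-fold change was seen for 1229 of the higher and 965 of the lower genes, and the median absolute log2 fold change of the genes called was 1.40. The median over all genes tested was 0.00353, so the fold changes were centered near 0. In 3027 of the called genes, and in 4499 of all 20776 genes tested (21.7%), no GFP Treg library overlapped any minusFoxp3 library. Calls and overlap rest on the same libraries, so the lack of overlap is no separate evidence for the calls. Without the 5 libraries with high Siglech, 4179 genes were called, 3038 of them shared with the calls on all libraries. The count was sensitive to 1 library: without GFP Treg replicate 1, when the lone GFP Treg library was assumed to vary like the other groups, it was 1838, and without replicate 2 it was 2116.

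**Figure D2:**
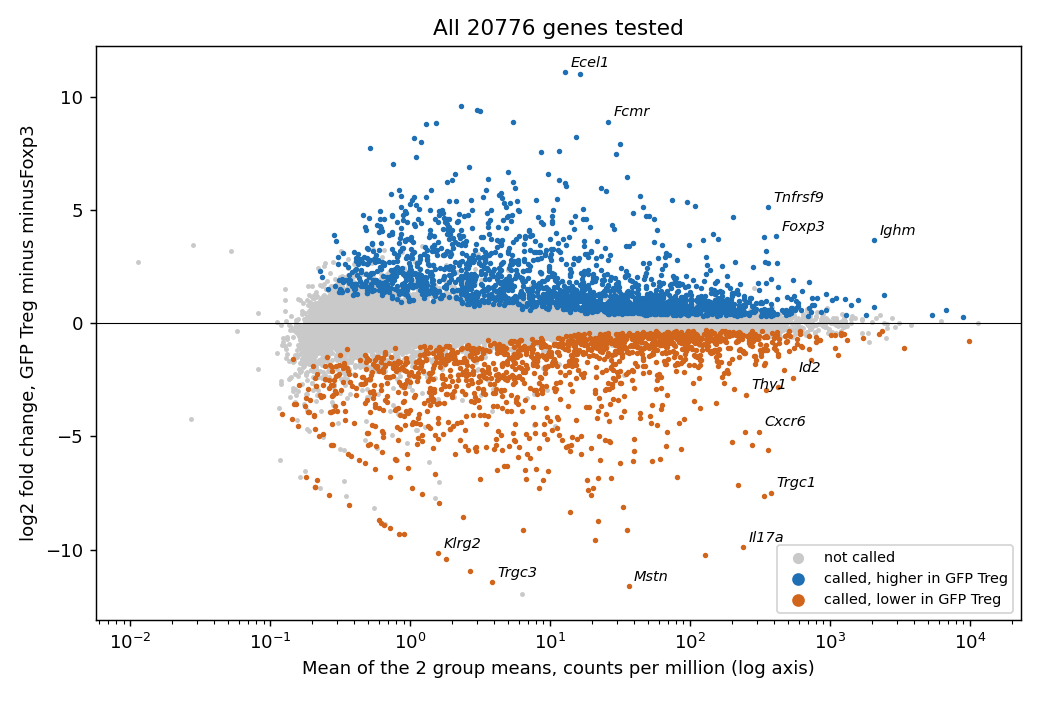
The log2 fold change of each of the 20776 genes (vertical axis) against the mean of the GFP Treg and minusFoxp3 group means in CPM (horizontal log axis), with genes called higher in blue and lower in orange. Il17a, Mstn and Trgc1 lie far below 0 at high expression, and Foxp3, Tnfrsf9 and Ighm far above it.

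GFP Treg cells were separated from minusFoxp3 cells by much of the Treg signature. Of the 29 genes in that list, all of them tested, 22 were higher and 3 were lower, with a median log2 fold change of 1.80. Without the 5 libraries with high Siglech, 23 were higher and 3 lower, and leaving out any single library gave 20 to 23 higher. Ikzf2 encodes Helios, a transcription factor of stable Treg cells. It was at 653 and 608 CPM in GFP Treg cells and at 35.2 to 61.6 CPM, with a median of 47.1, in minusFoxp3 cells. Its log2 fold change was 3.79 ± 0.20 (SE; adjusted p = 1.80e-09). The costimulatory receptor 4-1BB is encoded by Tnfrsf9, which was at 796 and 600 CPM against 13.9 to 28.0 CPM, a log2 fold change of 5.13 ± 0.24 (adjusted p = 4.78e-10). Lrrc32 encodes GARP, which holds latent TGF-β at the Treg surface, and had 369 and 415 CPM in GFP Treg cells against 9.69 to 23.7 CPM. The integrin chain that activates this latent TGF-β, Itgb8, was at 78.1 and 63.0 CPM against 0.25 to 2.03 CPM, a log2 fold change of 6.47 ± 0.35 (adjusted p = 2.39e-09). Both TGF-β genes were therefore above every minusFoxp3 library. The inhibitory lectin receptor Klrg1, a marker of terminally differentiated Treg cells, was at 33.0 and 85.7 CPM in GFP Treg cells and never above 0.73 CPM in minusFoxp3 cells. Nrp1, which encodes the surface receptor neuropilin-1, had a log2 fold change of 2.698 ± 0.24.

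The remaining signature genes were mixed. Il2ra, the high-affinity IL-2 receptor chain CD25, was at 485 and 639 CPM in GFP Treg cells and at 230 to 334 CPM in minusFoxp3 cells, a log2 fold change of 1.08 ± 0.14 (adjusted p = 3.46e-05). Ctla4 was at 835 and 1070 against 727 to 998 CPM, with overlapping libraries and an adjusted p of 0.378. For Il10, which encodes an inhibitory cytokine, the values were 40.4 and 82.7 against 61.5 to 126 CPM (adjusted p = 0.337). Icos and Tigit rose, by 0.58 and 0.78 on the log2 scale, although GFP Treg and minusFoxp3 libraries overlapped for both. The Icos call was lost without GFP Treg replicate 1 (adjusted p = 0.0517) and without replicate 2 (adjusted p = 0.175). The 3 members that were lower were Socs2, Nt5e and Capg. Socs2, a feedback inhibitor of cytokine signaling, was at 54.9 and 101 CPM against 500 to 828 CPM, a log2 fold change of -2.95 ± 0.23 (adjusted p = 1.24e-07). Nt5e, which encodes the adenosine-producing enzyme CD73, fell by 0.76 on the log2 scale, with overlapping libraries, and lost its call without GFP Treg replicate 2 (adjusted p = 0.256).

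**Figure D3:**
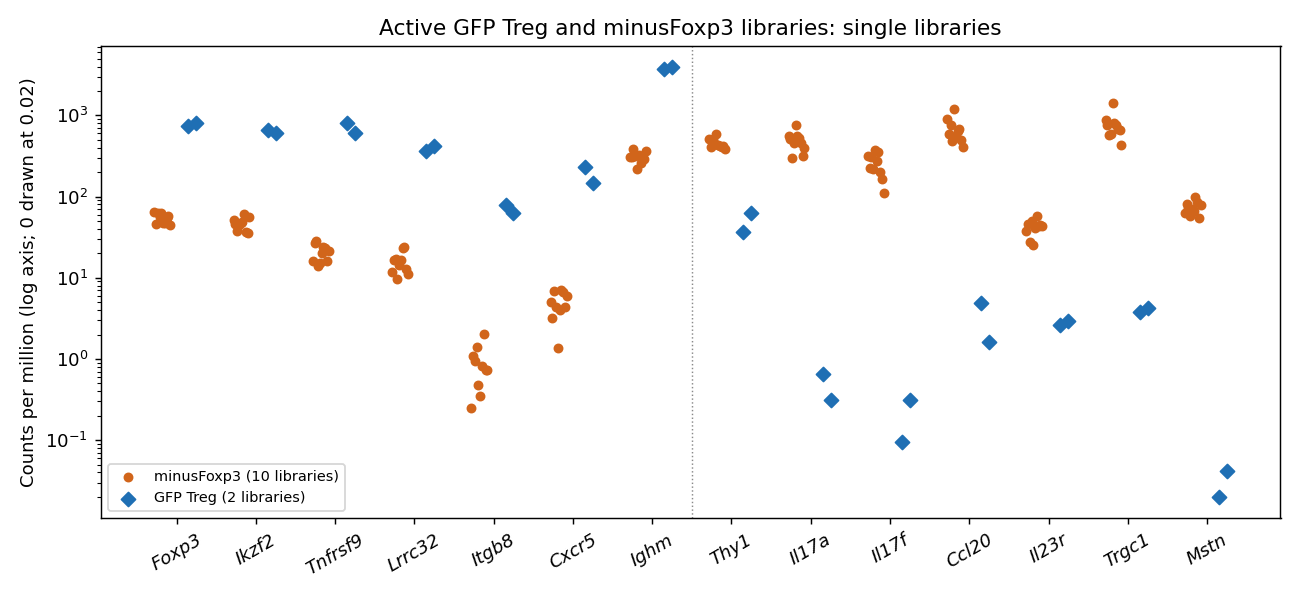
Levels in single libraries in CPM (log axis) of 7 genes higher (left of the dotted line) and 7 genes lower (right) in GFP Treg cells, with 2 blue diamonds for GFP Treg and 10 orange circles for minusFoxp3 libraries of each gene. No diamond overlaps the circles of its gene, and Il17a, Il17f and Mstn are below 1 CPM in both GFP Treg libraries; a level of 0 is drawn at the bottom of the axis.

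The Th17 program was low in GFP Treg cells and high in minusFoxp3 cells. Of the 17 genes in the list, 16 were lower in GFP Treg cells and 1, Batf, was higher, with a median log2 fold change of -3.87. In all 17, the libraries did not overlap. The same 16 and 1 were counted without the 5 libraries with high Siglech. The summed level of the list was 780 and 836 CPM in GFP Treg cells and 3474 to 6372 CPM in minusFoxp3 cells. To show the start sites of the 4 members that fell most, Il17f, Il17a, Ccl20 and Il17re, their promoter windows (250 bases before to 50 after the start, RefSeq sequences found once each by exact match in GRCm39) are given 5′ to 3′ on the gene's strand. Capitals mark AGGTCA or its reverse complement TGACCT, a core half-site of nuclear receptor elements.
Il17f (chr1:20854445-20854744, minus strand): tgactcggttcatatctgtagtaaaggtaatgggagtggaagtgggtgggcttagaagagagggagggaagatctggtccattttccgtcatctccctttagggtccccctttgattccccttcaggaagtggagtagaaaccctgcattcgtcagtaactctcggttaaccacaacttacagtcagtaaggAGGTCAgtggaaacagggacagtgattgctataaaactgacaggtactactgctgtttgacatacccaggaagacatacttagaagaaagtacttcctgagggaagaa
Il17a (chr1:20800879-20801178, plus strand): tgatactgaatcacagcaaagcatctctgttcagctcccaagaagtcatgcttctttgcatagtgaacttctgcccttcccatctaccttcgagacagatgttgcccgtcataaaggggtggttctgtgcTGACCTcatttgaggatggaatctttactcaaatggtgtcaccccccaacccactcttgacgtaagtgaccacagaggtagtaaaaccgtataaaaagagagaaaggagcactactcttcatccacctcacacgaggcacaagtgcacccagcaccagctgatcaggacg
Ccl20 (chr1:83094237-83094536, plus strand): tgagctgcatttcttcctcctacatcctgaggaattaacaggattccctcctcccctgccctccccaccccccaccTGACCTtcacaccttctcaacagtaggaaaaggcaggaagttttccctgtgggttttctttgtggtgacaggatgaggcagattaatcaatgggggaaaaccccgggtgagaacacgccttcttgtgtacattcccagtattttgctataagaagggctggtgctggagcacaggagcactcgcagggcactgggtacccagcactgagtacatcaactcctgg
Il17re (chr6:113435482-113435781, plus strand): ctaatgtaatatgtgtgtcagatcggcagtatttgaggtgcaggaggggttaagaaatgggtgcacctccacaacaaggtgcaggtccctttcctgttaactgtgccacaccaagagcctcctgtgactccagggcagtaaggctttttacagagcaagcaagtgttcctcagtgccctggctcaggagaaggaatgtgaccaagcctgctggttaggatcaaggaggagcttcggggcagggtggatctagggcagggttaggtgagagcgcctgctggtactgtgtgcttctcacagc
The match begins 58 bases before the start of Il17f, 120 before that of Il17a and 174 before that of Ccl20, and these letters are not in the Il17re window. Among the tested genes with a window, 15.5% of 12328 hold the letters on either strand, against 16.0% of the 1421 higher and 17.3% of the 886 lower genes with a window, 5 of 14 genes (35.7%) of the Th17 list and 5 of 19 genes (26.3%) of the Treg signature.

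Il17a was at 0.65 and 0.31 CPM in GFP Treg cells and at 302 to 763 CPM, with a median of 484, in minusFoxp3 cells. Its log2 fold change was -9.89 ± 0.51 (SE; adjusted p = 1.80e-09), and -10.56 without GFP Treg replicate 1. Il17f was at 0.09 and 0.31 CPM against 111 to 375 CPM. Both cytokine genes were thus under 1 CPM in each GFP Treg library and abundant in every minusFoxp3 library. Ccl20 encodes the ligand of the chemokine receptor CCR6 and was at 4.84 and 1.62 CPM against 414 to 1195 CPM. The receptors of the program, Il23r, Il1r1 and Ccr6, fell by 3.87, 3.86 and 2.40 on the log2 scale. The aryl hydrocarbon receptor gene Ahr was at 56.3 and 84.0 CPM against 207 to 345 CPM. Batf, an AP-1 factor needed by several helper and Treg subsets, was at 311 and 260 CPM against 140 to 248 CPM. This last call was lost without GFP Treg replicate 1, with an adjusted p of 0.119.

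Genes of γδ and innate-like T cells were among the largest differences. Trgc1, a constant segment of the T cell receptor γ chain, was at 3.74 and 4.26 CPM in GFP Treg cells and at 437 to 1407 CPM in minusFoxp3 cells, a log2 fold change of -7.49 ± 0.43 (adjusted p = 4.19e-09). Trgc3 had no read in either GFP Treg library and 1.75 to 14.9 CPM in minusFoxp3 cells, which is at least 253-fold higher when 3 counts over both GFP Treg libraries are taken as the limit. Trgc2 was at 0.30 and 0.998 CPM against 17.8 to 40.1 CPM, a log2 fold change of -5.38, which was -4.79 without GFP Treg replicate 1 and -6.46 without replicate 2. Blk, a Src-family kinase of B cells and IL-17-producing γδ T cells, was at 1.94 and 0.998 CPM against 45.7 to 197 CPM, a log2 fold change of -6.07, which was -6.67 without GFP Treg replicate 1. The Trgc genes are close copies of each other, and reads that fit several of them could have been lost or split in the counting. The defining δ chain gene did not move with them: Trdc was at 6.21 and 6.74 CPM in GFP Treg cells and at 1.94 to 8.49 CPM in minusFoxp3 cells (adjusted p = 0.262), and Sox13 was below 0.2 CPM in all 12 libraries. Of the 7 tested genes in this list of 9, 4 were lower and 1, Cd1d1, was higher. The list summed to 94.8 and 103 CPM in GFP Treg cells and 581 to 1674 CPM in minusFoxp3 cells. Trac, the constant segment of the α chain, was not called (adjusted p = 0.0992). The stated gate of the wannabe cells required TCRβ, and the part of γδ T cells in these values was not tested.

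Beyond Th17 genes, the helper cytokine genes Il4 and Il21 were also low in GFP Treg cells. Of the 24 tested cytokine genes in a list of 30, 9 were lower and 4 were higher. The 9 include Il17f, Il17a and Ccl20, which are also in the Th17 list. Il4 was at 0.82 and 0.29 CPM against 22.3 to 73.0 CPM, and Il21, which supports germinal center B cells, at 10.1 and 1.02 CPM against 72.1 to 147 CPM. For Il21 the log2 fold change was -4.10 ± 0.55 (adjusted p = 4.23e-05), and it was -6.59 without GFP Treg replicate 1 and -3.24 without GFP Treg replicate 2. Ifng was at 8.89 and 9.92 CPM in GFP Treg cells and 10.3 to 72.6 CPM in minusFoxp3 cells (adjusted p = 0.100). Il2 was low in both groups, with 2.34 and 3.06 against 3.27 to 6.45 CPM (adjusted p = 0.123). Neither was called, although for both the GFP Treg libraries lay below every minusFoxp3 library. Without the 5 libraries with high Siglech, their log2 fold changes were -1.59 and -0.66. The cytokine genes that were higher in GFP Treg cells were Csf1, Ccl5, Ltb and Tnfsf11. Csf1, the growth factor of macrophages, was at 70.7 and 62.9 CPM against 3.37 to 9.21 CPM. Ccl5, a chemokine of effector lymphocytes, was at 33.2 and 40.2 CPM against 0.59 to 7.47 CPM. Tnfsf11, which encodes RANKL, rose by only 0.38 on the log2 scale and lost its call without either GFP Treg library.

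Transcription factors of T cell differentiation split between the groups. Of the 30 regulators in the list, 9 rose and 11 fell in GFP Treg cells, with a median log2 fold change of -0.20. The Id proteins, which block E proteins, moved in opposite directions: Id3 was at 191 and 168 CPM in GFP Treg cells against 9.57 to 26.9 CPM, and Id2 at 139 and 203 CPM against 744 to 1446 CPM. Their log2 fold changes were 3.45 ± 0.24 and -2.41 ± 0.33. Lef1, a factor of naive and central memory cells, was at 163 and 171 CPM against 31.8 to 79.6 CPM. Bcl6, the follicular helper regulator, was at 36.4 and 18.3 CPM against 3.03 to 8.18 CPM. Tbx21 encodes T-bet, the Th1 regulator, and was at 46.9 and 15.2 CPM against 3.62 to 8.62 CPM. Both GFP Treg libraries were above every minusFoxp3 library but far from each other, and without GFP Treg replicate 1 Tbx21 had a log2 fold change of 1.27 and an adjusted p of 0.127. Bcl6 had 1.61 without that library, against 2.22 with it. Zeb2, a repressor linked to terminal effector cells, fell by 3.68 ± 0.43 on the log2 scale, and by 4.35 without GFP Treg replicate 1.

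Homing and chemokine receptors were partitioned as well, with 8 of 30 up and 12 down in GFP Treg cells, and 5 and 8 without GFP Treg replicate 1. Cxcr5, which guides cells to B cell follicles, was at 228 and 146 CPM in GFP Treg cells and at 1.37 to 7.12 CPM in minusFoxp3 cells, a log2 fold change of 5.36 ± 0.26 (adjusted p = 7.44e-10). Cxcr3, the receptor for interferon-induced chemokines, was at 353 and 236 CPM against 16.0 to 33.4 CPM. Itgae, the αE chain of an integrin that binds epithelial E-cadherin, was at 521 and 724 CPM against 40.6 to 120 CPM. In contrast, Cxcr6, a receptor of tissue effector cells, was at 16.3 and 26.3 CPM in GFP Treg cells against 336 to 789 CPM in minusFoxp3 cells. Ccr1 was at 1.31 and 2.95 CPM against 32.4 to 113 CPM, and Ccr2 at 103 and 190 CPM against 277 to 685 CPM.

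Other helper and killer programs were mixed. Of 16 Th1 genes, 5 were higher, among them Tbx21, Cxcr3 and Ccl5, and 3 were lower, among them Il18rap at 15.3 and 14.3 CPM against 26.8 to 53.5 CPM. Without GFP Treg replicate 1 only 2 Th1 genes were higher, and without the 5 libraries with high Siglech 5 were lower. In the Th2 list, 6 of 12 tested genes were higher and 2, Il4 and the chemokine receptor gene Ccr4, were lower, with 2 higher without GFP Treg replicate 2. Il1rl1, which encodes the IL-33 receptor chain ST2 found on tissue Treg cells, was at 15.0 and 27.2 CPM against 0.73 to 4.54 CPM. Of 18 follicular helper genes, 9 were higher and 5 lower. Sh2d1a, the adaptor SAP, rose by 1.30 on the log2 scale, whereas Cd40lg, which gives help to B cells, was at 29.7 and 32.1 CPM against 81.6 to 126 CPM. Among 19 tested cytotoxic and killer lectin genes, 9 were higher and 4 lower. Klrk1, which encodes the activating receptor NKG2D, fell by 2.88 on the log2 scale. Of 23 anergy and exhaustion genes, 11 were higher and 3 lower, with 6 higher without GFP Treg replicate 1. Izumo1r, the folate receptor FR4 of anergic and Treg cells, was at 1138 and 1055 CPM against 248 to 444 CPM. Of 21 naive and memory genes, 8 were higher and 7 lower, with 5 higher without GFP Treg replicate 2 and 3 lower without GFP Treg replicate 1. Of 25 other cytokine receptors, 9 were higher and 8 lower. The IL-18 receptor gene Il18r1 was at 16.4 and 19.7 CPM against 178 to 219 CPM.

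Costimulatory receptors were more often called higher than lower in GFP Treg cells. Of 31 checkpoint and costimulatory receptors, 19 were higher and 6 lower. Cd27 was at 745 and 697 CPM against 79.6 to 174 CPM, a log2 fold change of 2.66 ± 0.14 (adjusted p = 2.22e-09). Cd160 was at 28.2 and 27.6 CPM against 0.96 to 3.28 CPM. The receptors that fell most were Havcr2, which encodes TIM-3, Lag3 and Cd226, by 1.95, 1.85 and 1.85 on the log2 scale. In the IL-2 and common gamma chain list, 11 of 20 genes were higher and 3 lower, with 7 higher without GFP Treg replicate 2 and 1 lower without GFP Treg replicate 1. Il21r was at 708 and 538 CPM against 68.4 to 136 CPM, while its ligand gene Il21 was lower in GFP Treg cells, as given before. Il4ra was at 350 and 346 CPM against 70.8 to 133 CPM. Il7r, the IL-7 receptor chain, was at 163 and 215 CPM against 331 to 732 CPM. It lost its call without GFP Treg replicate 1 (log2 fold change -1.03) and without replicate 2 (-1.39). With day 0 controls only, it was not called either (adjusted p = 0.0937). Of 22 tested suppressive products, 10 were higher and 5 lower. Ebi3, a subunit of IL-35 and IL-27, was at 23.1 and 41.6 CPM against 1.35 to 3.42 CPM, and the perforin gene Prf1 at 17.4 and 19.7 CPM against 0.54 to 2.67 CPM. Pde3b, a phosphodiesterase gene repressed by Foxp3 in Treg cells, was at 0.63 and 1.62 CPM in GFP Treg cells and at 35.7 to 101 CPM in minusFoxp3 cells, a log2 fold change of -6.07 ± 0.55 (adjusted p = 5.45e-07), which was -6.90 without GFP Treg replicate 2.

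**Figure D4:**
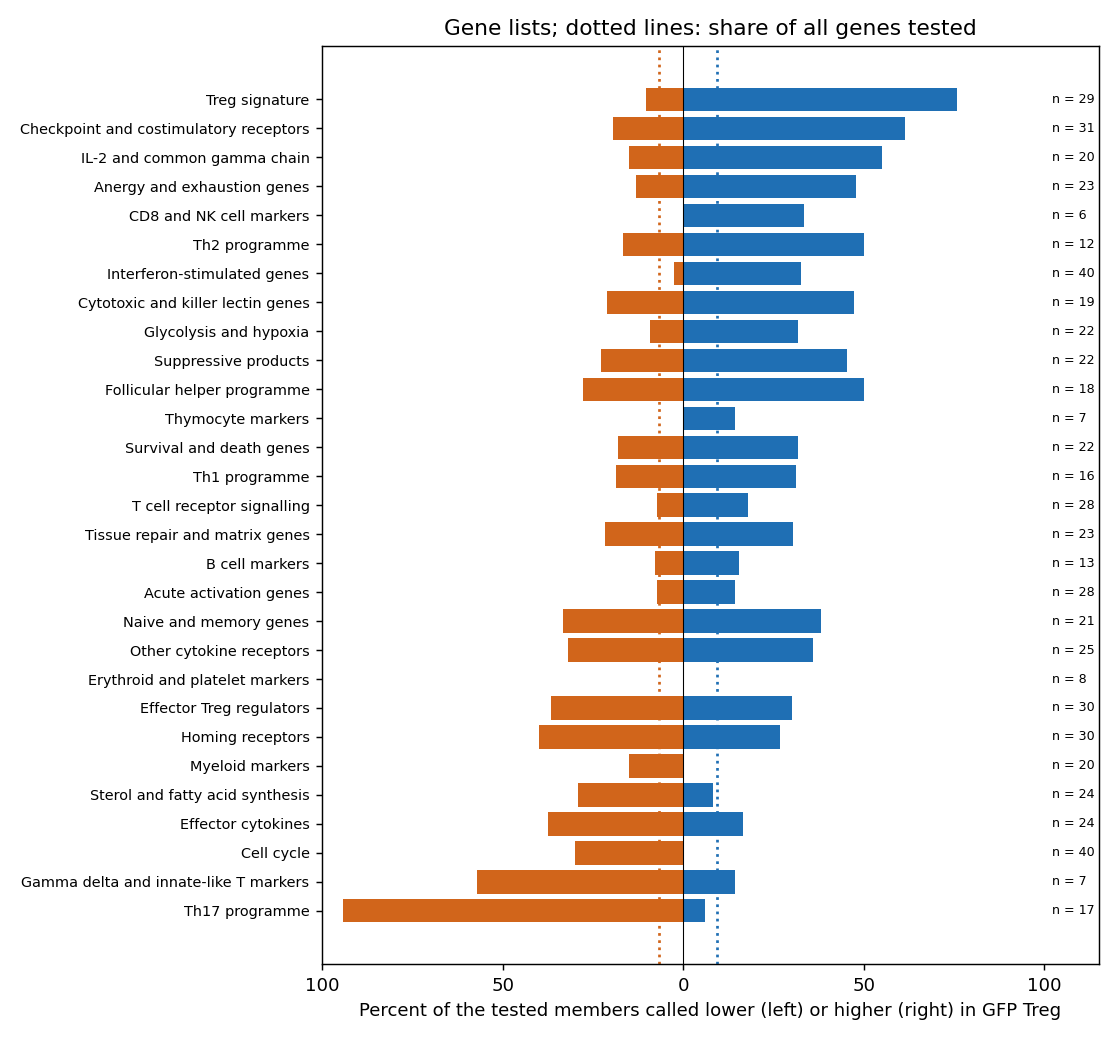
The percent of tested members of each gene list that were called higher (blue, right) or lower (orange, left) in GFP Treg cells, with the number tested at the right edge; dotted lines mark the shares over all genes, 9.46% higher and 6.69% lower. The Treg signature has the longest bar to the right and the Th17 programme the longest to the left.

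An immunoglobulin signal accompanied GFP Treg cells. Ighm, the constant region of immunoglobulin M, was at 3754 and 3902 CPM in GFP Treg cells and at 219 to 387 CPM in minusFoxp3 cells, a log2 fold change of 3.67 ± 0.14 (adjusted p = 3.20e-11). Ighg3 was at 13.8 and 24.3 CPM against 0 to 0.63 CPM. Fcmr, a receptor for IgM, was at 52.6 and 51.9 CPM against 0 to 0.53 CPM, a log2 fold change of 8.91 ± 0.49. The defining B cell genes were near 0 in every library: Ms4a1 was at 0.19 and 1.44 CPM in GFP Treg cells and 0.04 to 0.88 CPM in minusFoxp3 cells, and Pax5 below 1 CPM throughout. Cd79b rose by 1.44 on the log2 scale, Cd79a was not called (adjusted p = 0.329), and Igkc was at 81.1 and 39.6 CPM against 12.3 to 116 CPM. In the B cell list, 2 of 13 tested genes were higher and 1 was lower, against 9.46% and 6.69% of all genes tested. The list summed to 3891 and 4003 CPM in GFP Treg and 313 to 466 CPM in minusFoxp3 libraries, nearly all of it Ighm in the former. Of 6 tested CD8 and NK cell genes 2 were higher (4 without the 5 libraries with high Siglech), of 7 thymocyte genes 1 (3 without them), of 8 erythroid and platelet genes 0, and of 20 myeloid genes 3 were lower and 0 higher (2 and 1 without them). Without GFP Treg replicate 2, the higher thymocyte genes and the lower myeloid genes numbered 0.

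The genes with the largest differences, named by rank among well-expressed genes (mean count 100 or more in the active libraries) without overlap, were mostly outside the lists. Ecel1, Slc7a10, Fcmr, Sostdc1, Fhip1a, Noxa1, Klrg1, Ighg3, Itgb8, Slc24a3, Actg2 and Ptpn5 led the genes higher in GFP Treg cells. Slc7a10, an amino acid transporter gene, was at 41.2 and 24.8 CPM in GFP Treg cells and no more than 0.30 CPM in minusFoxp3 cells. Noxa1, a subunit of an NADPH oxidase, was at 20.6 and 25.5 CPM against 0 to 0.38 CPM. In some of these genes the 2 GFP Treg libraries were far apart: Sostdc1 was at 59.8 and 1.35 CPM, Ecel1 at 46.9 and 4.37 CPM and Slc24a3 at 39.5 and 6.61 CPM. Without GFP Treg replicate 1 their log2 fold changes were 3.69, 8.51 and 4.48, against 8.22, 11.10 and 6.32 with it. At the other end, Mstn, which encodes myostatin, was at 0 and 0.04 CPM in GFP Treg cells, 2 counts in all, and at 55.3 to 98.9 CPM in minusFoxp3 cells. The ratio of minusFoxp3 to GFP Treg was 3690, with an exact 95% counting interval of 1020 to 30500. This interval pools the counts of each group and leaves out the spread between libraries. Klrd1, an NK cell receptor chain, Asic2, a proton-gated channel, and Klrg2 had no read in either GFP Treg library, and were at least 177-fold, 122-fold and 107-fold higher in minusFoxp3 cells by the same limit of 3 counts. Tmeff2 was at 0.21 and 0.02 CPM against 44.8 to 134 CPM and Amph, a membrane-curving protein of endocytosis, at 0.04 and 0.06 CPM against 29.0 to 64.4 CPM. Trgc3, Il17f, Il17a, Zfp385c, Arl11 and Pld4 completed the 12 lowest. Pld4 followed Siglech, with 0.62 to 97.6 CPM in minusFoxp3 cells, and its log2 fold change was -8.35 with and -4.64 without the 5 libraries. Its call on all libraries (adjusted p = 0.0333) was lost without GFP Treg replicate 1 (adjusted p = 0.269) and without replicate 2 (adjusted p = 0.204). That of Asic2 was lost without GFP Treg replicate 1 (adjusted p = 0.0532).

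Proliferation and interferon genes differed less. In the cell cycle list, 12 of 40 genes were lower in GFP Treg cells and 0 were higher, with a median log2 fold change of -0.74. Ube2c was at 8.81 and 11.6 CPM against 12.8 to 64.1 CPM, and Cdk1 at 6.91 and 10.96 CPM against 11.4 to 42.0 CPM. Without GFP Treg replicate 1 neither was called (log2 fold changes of -1.25 and -0.97), and without replicate 2 Ube2c was not called (-1.60). This count depended on single libraries, being 1 without GFP Treg replicate 1, 19 without day 0 replicate 2 of minusFoxp3 cells, and 17 without the 5 libraries with high Siglech. Of 40 interferon-stimulated genes, 13 were higher and 1 lower, with 6 higher without GFP Treg replicate 1. The 1 lower gene was Oasl2, which lost its call without GFP Treg replicate 1 (adjusted p = 0.152), and 2 were lower without the 5 libraries with high Siglech. Gbp7, a guanylate-binding protein, was at 438 and 469 CPM against 112 to 205 CPM, a log2 fold change of 1.47 ± 0.15. Oas1a, an antiviral synthetase, rose by 1.25 on the log2 scale. Of 28 genes of T cell receptor signaling, 5 were higher and 2 lower, with 8 higher without the 5 libraries with high Siglech. Over all genes tested, 9.46% were higher and 6.69% lower. Ubash3a and Cbl, both negative regulators of the receptor, rose by 0.98 and 0.87 on the log2 scale, and the adaptor gene Lat fell by 0.46, a call lost without GFP Treg replicate 1 (adjusted p = 0.146).

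The neighbors of Foxp3 on the X chromosome also differed. Ppp1r3f (chrX:7423535-7440522, minus strand), which overlaps the first bases of Foxp3 in the annotation used for counting, was at 40.5 and 43.3 CPM in GFP Treg cells and 9.21 to 14.5 CPM in minusFoxp3 cells, a log2 fold change of 1.89 ± 0.13 (adjusted p = 3.68e-08). Cacna1f, a calcium channel gene on the other side, was at 9.70 and 7.88 CPM against 1.17 to 2.87 CPM. Ccdc22, between Foxp3 and Cacna1f, had under 0.3 CPM in all 12 libraries and overlaps the end of Foxp3. As the counting did not use strand, reads of genes that overlap on opposite strands cannot be told apart.

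The comparison was also made with the minusFoxp3 cells of each day. Against day 0, 2079 genes were called, and against days 3, 7, 14 and 28 the numbers were 2103, 2846, 1972 and 1748. These comparisons share the 2 GFP Treg libraries. Of the 3355 genes, 3350 had the same sign against all 5 days, 1237 were called against each of them and 374 against none. The log2 fold change of Il17a was -10.07, -9.57, -10.37, -9.97 and -9.49 on days 0, 3, 7, 14 and 28, and that of Ikzf2 3.72, 3.99, 3.75, 3.70 and 3.81. Among the minusFoxp3 cells themselves, the edgeR test across the 5 days called 0 of 20776 genes, with 710 at an unadjusted p under 0.05, and the DESeq2 likelihood ratio test called 71, with 1095 unadjusted. Without the 5 libraries with high Siglech, when each day had 1 library, edgeR called 18. The day 7 pair differed most between its 2 libraries: without day 7 replicate 2, the count against all days was 4215 and that against day 7 was 5038.

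Resting cells of the same study served to test whether the difference depended on the activation state. In one fit of 44 libraries, the difference between GFP Treg and minusFoxp3 cells was itself different between active and resting cells for 1017 of 20790 genes (4.89%). The log2 fold change was higher in the active state for 463 of them and lower for 554. This count was 433 without active GFP Treg replicate 1, 554 without active replicate 2, 451 without resting GFP Treg replicate 1 and 505 without resting replicate 2. It was 1155 without the 5 libraries with high Siglech. In the Treg signature, 13 of 29 genes were called, 7 higher and 6 lower. Values for active cells are those of the active fit, and the difference comes from the joint fit. Tnfrsf9 had a log2 fold change of 5.13 in active and 1.49 in resting cells, a difference of 3.61 ± 0.37 (SE; adjusted p = 6.81e-07), and Itgb8 had 6.47 and 1.98, a difference of 4.46 ± 0.57 (adjusted p = 1.18e-05). Foxp3 itself had 3.86 and 3.36, with an adjusted p of 0.240 for the difference. Ikzf2 had 3.79 and 1.14, a difference of 2.62 ± 0.38, and its median was 170 CPM in resting and 47.1 CPM in active minusFoxp3 cells. By rank, Fam174b, Itgb8, Fcmr, Gsta4, Swap70 and Cd160 led the genes with a higher log2 fold change in active than in resting cells. Swap70, a regulator of the actin cytoskeleton, had 4.76 in active and 0.80 in resting cells. Klrg2, Pld4, Trgc3, Arl11, Havcr2 and Nmur1 led those with a lower log2 fold change in active than in resting cells. Without the 5 libraries with high Siglech, the difference of Pld4 was -5.84 against -9.56 with them, and Trgc3 and Arl11 lost their calls (adjusted p = 0.0519 and 0.0515). Havcr2 was lower in active GFP Treg cells than in active minusFoxp3 cells (-1.95) and higher in resting ones (5.86), at 1.99 and 3.24 CPM in resting GFP Treg cells against a median of 0.04 CPM. The Trgc1 difference also depended on the state by this test, with -7.49 in active and -0.35 in resting cells (adjusted p = 2.16e-06). In the Th17 list, the difference between GFP Treg and minusFoxp3 cells depended on the state for 8 of 17 genes. All 8 had a lower log2 fold change in the active than in the resting state, and Il17f was among them. Il17a did not pass this test, nor did Ccl20 (-7.64 and -7.36, adjusted p = 0.916). The cell cycle list had 15 of 40 genes called by this test, all with a lower log2 fold change in the active state.

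**Figure D5:**
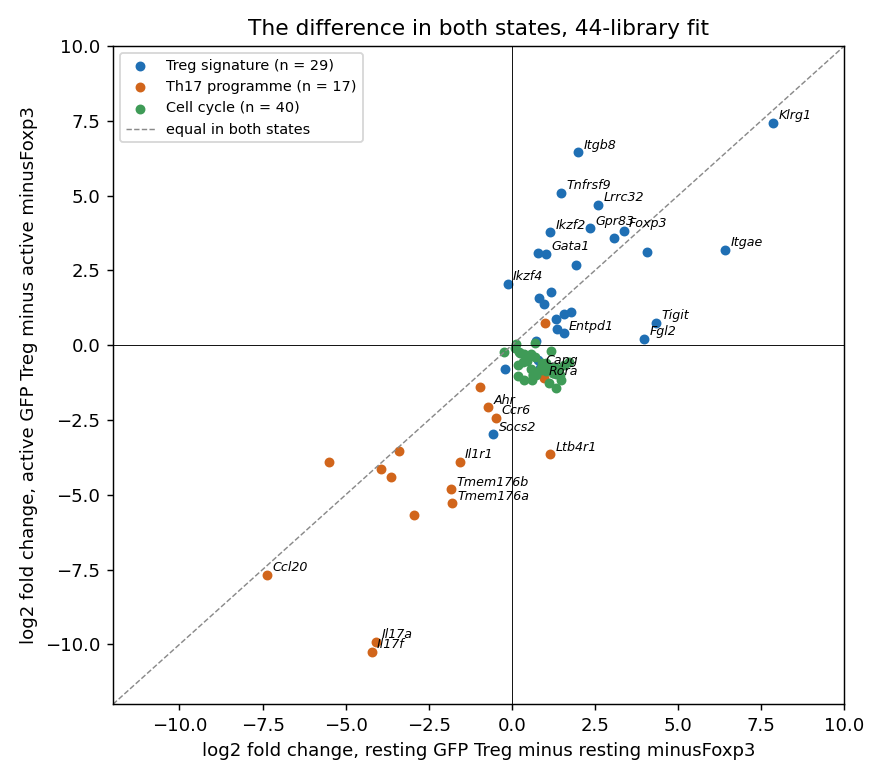
The log2 fold change between GFP Treg and minusFoxp3 cells in the active state (vertical axis) against that in the resting state (horizontal axis), for genes of the Treg signature (blue), Th17 programme (orange) and cell cycle (green) lists, with a dashed line of equal effects. Itgb8, Tnfrsf9 and Ikzf2 lie above the line, whereas Il17a and Il17f lie below it and Ccl20 and Klrg1 near it. Il17f was called in the test of the state difference, and Il17a was not.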

How the data were processed

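Per the labels, RNA of sorted CD4 T cells was amplified with SMART-Seq v4 and sequenced as paired ends. The deposited values were raw counts of read pairs per gene, which the authors made with featureCounts 2.0.3 on GENCODE gene models of GRCm39, without using strand and without reads that map to several places. The aligner is named as STAR in the methods and as Bowtie2 in the submitters' processing notes. The 12 libraries held 42746339 to 52672579 read pairs, and each group had 2 libraries. CPM values were divided by the summed counts of each library.

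Genes whose counts averaged 10 or more in the 22 active libraries were fitted in R 4.3.3 with edgeR 4.0.16 (quasi-likelihood test, TMM scaling, 11 groups, 11 residual degrees of freedom). The active plusFoxp3 libraries were among the 22 and entered the estimate of the spread, not the contrast. GFP Treg cells were contrasted with the mean of the 5 minusFoxp3 days, with Benjamini-Hochberg adjustment over all tested genes and a threshold of 0.05. The same contrast was made for each day, across days, and between active and resting cells in a fit of 44 libraries. Alternatives included DESeq2 1.42.0, other scaling, no filter, a replicate block and leaving out each library. The tests were tried on simulated data. Genes named by rank were the 12 per direction with the largest fold change, a mean count of at least 100 and no overlap between groups (6 per direction for the state difference), leaving out predicted genes and the variable, diversity and joining segments of immunoglobulin and T cell receptor genes. Per list, members could be named, with up to 4 called per direction as examples. The members and the 31 gene lists were chosen with earlier results of these data known. Promoter windows came from a RefSeq table of GRCm38.p6 and were placed in GRCm39 by exact match. Libraries of the degron experiment were not used here. Some genes are not reported here, although the counts of the gene lists include them.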

Additional observations from a re-analysis of the deposited data

Results flagged for a closer look

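In 15 of 130 genes (11.5%), 1 of the 10 minusFoxp3 libraries lay far from the others. The criterion marks about 1 in 20 groups of independent values by chance, and as these genes share libraries their share cannot be read against that rate. The library of day 7 replicate 1 stood apart for Amph (64.4 CPM, nearest library 46.3), Id2 (1450 CPM, nearest library 1050), Il4 (73 CPM, nearest library 44.9), Lgals3 (155 CPM, nearest library 84.6), Slc7a10 (0.296 CPM, nearest library 0.135), Tmeff2 (134 CPM, nearest library 72.5) and Trgc1 (1410 CPM, nearest library 875). That of day 3 replicate 1 did so for Ccl5 (7.47 CPM, nearest library 2.59) and Cd226 (114 CPM, nearest library 170). That of day 3 replicate 2 did so for Fhip1a (0.795 CPM, nearest library 0.407) and Sostdc1 (0.936 CPM, nearest library 0.444). That of day 28 replicate 2 did so for Actg2 (1.32 CPM, nearest library 0.675). That of day 14 replicate 1 did so for Cd160 (3.28 CPM, nearest library 2.01). That of day 0 replicate 2 did so for Mmp9 (14.1 CPM, nearest library 8.16). That of day 7 replicate 2 did so for Usp18 (72.6 CPM, nearest library 37.9).

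The GFP Treg effect differed between active and resting cells for 66 of the 130 named genes, by the test of the difference itself in the edgeR fit of 44 libraries. The log2 fold change was higher in the active state for 28 and lower for 38. Over all 20790 genes in that fit the share was 4.89%. All 130 were also called in the active comparison, which enters this difference, so these shares cannot be set against each other. Of the 66, 12 were named for their rank in this same difference, which fixes their calls. Values are differences of log2 fold changes, active minus resting. The highest were Fam174b (4.97), Itgb8 (4.46), Fcmr (4.41), Gsta4 (3.96), Swap70 (3.93), Cd160 (3.67) and Tnfrsf9 (3.61). Lower in that order came Actg2 (3.49), Nr4a2 (3.42), Id3 (3.10), Bcl6 (2.66), Ikzf2 (2.62), Cxcr5 (2.59) and Oasl1 (2.39). Differences of intermediate size were those of Cd27 (2.25), Lef1 (2.23), Il21r (2.14), Prf1 (2.12), Lrrc32 (2.10), Fas (1.78) and Ighm (1.73). The smallest were Bnip3 (1.63), Cd1d1 (1.62), Rel (1.24), Tnfsf11 (1), Ubash3a (0.99), Il4ra (0.97) and Bid (0.96).

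Most negative were Klrg2 (-11.28), Pld4 (-9.56), Trgc3 (-8.63), Arl11 (-8.04), Havcr2 (-7.84), Nmur1 (-7.79) and Trgc1 (-7.17). After these came Ccr1 (-7.16), Zfp385c (-6.58), Siglech (-6.54), Ccr2 (-6.32), Il17f (-6.03), Trgc2 (-6.03) and Zbtb16 (-5.67). They were followed by Lgals3 (-5.51), Tmeff2 (-5.08), Cxcr6 (-3.45), Itgae (-3.23), Zeb2 (-3.12), Mmp9 (-2.84) and Lgals1 (-2.83). Next in size were Ube2c (-2.74), Nusap1 (-2.65), Socs2 (-2.42), Cdk1 (-2.38), Anxa2 (-2.34), Il1r1 (-2.32) and Furin (-2.31). Smaller negative differences were those of Pde3b (-2.18), Ccr6 (-1.94), Bik (-1.91), Capg (-1.61), Cd226 (-1.43), Ahr (-1.36) and Idi1 (-1.33). The remaining ones were Sqle (-1.32), Irf4 (-1) and Ldha (-0.83). Without the 5 libraries with high Siglech, 6 of the 66 were no longer called (Arl11, Idi1, Il1r1, Irf4, Mmp9 and Trgc3), and the difference of Siglech was -3.29.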

How the results depend on the processing

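The 2 GFP Treg libraries limit the precision most. Over the fits that left out 1 library, with a lone library assumed to vary like the other groups, the count of 3355 ranged from 1838 (without GFP Treg replicate 1) to 4215 (without day 7 replicate 2), with 1049 to 2516 higher and 789 to 1699 lower. Against single days it ranged from 1149 to 1480 on day 0, 1139 to 1511 on day 3, 1491 to 5038 on day 7, 1172 to 1235 on day 14 and 939 to 1176 on day 28, and the test across days called 0 to 11. The state difference ranged from 433 to 1191 genes, 198 to 568 higher and 200 to 623 lower. With day 0 controls only, 2079 genes were called, 1083 of them higher. Asking for at least a 2-fold change left 2194, of which 1229 were higher. Without a count filter the state difference held 1866 genes (828 higher, 1038 lower) and the test across days 897, and DESeq2 called 71 across days. Without the 5 libraries with high Siglech the count against day 7 was 5223 and that across days 18. DESeq2 called 3867 genes in the comparison with all days, which held 98.3% of the edgeR calls, and RLE scaling gave 3331. A fit of only the 12 compared libraries, without the plusFoxp3 libraries, called 2833. Genes that lost their call in that fit included Icos, Tnfsf11, Lat, Ldha, Siglech and Pld4. The cause of these shifts was not tested.

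Replicate numbers were shared across groups, but deviations of same-numbered GFP Treg and minusFoxp3 libraries correlated at -0.172 to 0.0841, and those of minusFoxp3 libraries of different days at -0.000522 to 0.442, 8 of 10 pairs being over 0.1. As not every pair was over 0.1, the numbers were not taken to pair the samples. With the replicate block 3653 genes were called, 3316 of them shared with the fit without it, and 1349 in the state difference. With the pairing crossed, 3790 were called. Of 130 single genes followed over the alternatives, 36 lost their call at least once and 0 changed direction.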

Other observations

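Genes of metabolism, cell death and tissue repair were also counted, against shares over all genes tested of 9.46% higher and 6.69% lower. Of 22 survival and death genes, 7 rose and 4 fell in GFP Treg cells. The death receptor gene Fas was at 91.7 and 67.1 CPM against 12.7 to 21.6 CPM, and Bid, which links death receptors to mitochondria, rose by 2.09 on the log2 scale. Bik, a BH3-only gene, was at 4.48 and 4.95 CPM against 26.2 to 49.4 CPM. In glycolysis and hypoxia, 7 of 22 genes were higher and 2 lower, and without GFP Treg replicate 2 none of the latter kept its call. The glucose transporter gene Slc2a3 was at 231 and 222 CPM against 19.3 to 47.6 CPM, while Ldha, lactate dehydrogenase, fell by 0.48 on the log2 scale and lost its call without GFP Treg replicate 1 (adjusted p = 0.124) or replicate 2 (adjusted p = 0.110). In sterol and fatty acid synthesis, 2 of 24 were higher and 7 lower, with 3 lower without GFP Treg replicate 1 and 10 without day 7 replicate 1. Sqle, an enzyme of cholesterol synthesis, was at 22.9 and 31.6 CPM against 56.6 to 101.9 CPM.

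Of 23 tested tissue repair and matrix genes, 7 were higher and 5 lower, and 4 and 2 without GFP Treg replicate 1. Mmp9, a matrix protease, was at 51.8 and 76.1 CPM against 3.11 to 14.1 CPM. Penk, the enkephalin precursor, was at 137 and 103 CPM against 6.51 to 29.0 CPM. Among 28 acute activation genes, 4 were higher and 2 lower, with 8 higher without the 5 libraries with high Siglech. For scale, 9.46% of all genes tested were higher and 6.69% lower. Cd83 was at 512 and 443 CPM against 70.4 to 106 CPM, and Irf4, a factor of activated lymphocytes, at 69.7 and 63.2 CPM against 118 to 189 CPM.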
